A study of Mus musculus with 7 samples.

Results

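Open chromatin was examined in 2 clusters of KRAB zinc-finger genes of the mouse, from 174.5 to 178 Mb of chromosome 2 and from 144.5 to 147.5 Mb of chromosome 4 (build mm9). The members were all ATAC-seq peaks inside these windows. Cluster means the whole window here, and parts of a window may hold other genes. The windows were chosen by read counts and overlaps: they held several of the deepest peaks found in embryonic stem cells (mESC) and not in neural progenitor cells (NPC), so the contrast of these cell types is described here and supports nothing. Of 1148114 peaks in the 13 deposited lists, 2102 lay in the windows. The mESC list of peaks reproducible between libraries held 71 of them among its 28907 peaks, 28 on chromosome 2 and 43 on chromosome 4. The corresponding list of wild-type NPC held 48 of 41126, with 17 on chromosome 2 and 31 on chromosome 4. That of deltaFT NPC held 49 of 37270, with 24 and 25.

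ATAC-seq reads open chromatin through the sites where the Tn5 transposase inserts sequencing adapters. The 7 samples were 1 per group, so no test between groups was possible. All 3 female lines came from a 129S1 x Cast:EiJ F1 cross, and each had 2 libraries of 50K cells. They were mESC (line F1216), wild-type NPC (line C2) and NPC carrying an allele that the labels call deltaFT and do not describe (line sgdgb2). The other 4 samples were male J1 mESC, called TXY, in which Xist at its own X-linked locus can be switched on by doxycycline (dox). They were wild type or lacked the RepA part of Xist (deltaRepA), and were either untreated or given 2 ug/mL dox for 48 hours. Each genotype and cell state was therefore 1 line, and line and genotype cannot be told apart. The source label of the female mESC sample names progenitors while its title and medium are those of stem cells. The titles were followed there, and also for both dox-treated samples, whose descriptions name an untreated file. Labelled cell types were not checked against marker genes, since gene positions on mm9 were not used here.

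KRAB zinc-finger proteins bind DNA through arrays of C2H2 zinc fingers. Their KRAB domain recruits the corepressor TRIM28 (KAP1), which brings in the histone methyltransferase SETDB1 and leads to H3K9 trimethylation, chiefly at retroelements. Stem cells use this system to keep retroelements silent. The genes arose by tandem duplication and lie in large clusters, so neighbouring copies can be nearly the same in sequence.

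How alike these copies are was read from RefSeq (build GRCm38.p6). Between Edn3 and Phactr3 on chromosome 2 the RefSeq table lists 80 genes, 32 of them protein-coding, and 9 of these carry a zinc-finger name. Between Tnfrsf8 and Miip on chromosome 4 it lists 82 genes, of which 56 are pseudogenes and 19 are protein-coding, 17 of them with a zinc-finger name. That these intervals match the windows rests on known gene order. No coordinate was moved between builds, and no peak was assigned to a gene. Zinc-finger genes were counted by name only. The other 23 protein-coding genes on chromosome 2 and 2 on chromosome 4 were not checked for zinc fingers. The promoters of 3 genes of each cluster are shown, each as the 250 bases before the gene's start, because they show how far the copies have diverged. Capitals mark substitutions against the first promoter of each set. Coordinates are those of GRCm38.p6: Zfp968 at chr2:175372186-175372435, plus strand; Zfp967 at chr2:176520754-176521003, plus strand; Zfp972 at chr2:177925651-177925900, minus strand.
Zfp968: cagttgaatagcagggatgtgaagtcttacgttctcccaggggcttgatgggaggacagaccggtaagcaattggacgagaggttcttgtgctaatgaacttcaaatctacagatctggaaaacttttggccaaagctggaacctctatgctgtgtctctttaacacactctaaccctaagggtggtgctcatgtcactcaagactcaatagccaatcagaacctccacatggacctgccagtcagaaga
Zfp967: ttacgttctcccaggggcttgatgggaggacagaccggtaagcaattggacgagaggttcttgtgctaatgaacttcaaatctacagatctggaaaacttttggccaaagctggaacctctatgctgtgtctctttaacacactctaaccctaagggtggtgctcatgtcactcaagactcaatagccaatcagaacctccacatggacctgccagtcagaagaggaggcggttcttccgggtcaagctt
Zfp972: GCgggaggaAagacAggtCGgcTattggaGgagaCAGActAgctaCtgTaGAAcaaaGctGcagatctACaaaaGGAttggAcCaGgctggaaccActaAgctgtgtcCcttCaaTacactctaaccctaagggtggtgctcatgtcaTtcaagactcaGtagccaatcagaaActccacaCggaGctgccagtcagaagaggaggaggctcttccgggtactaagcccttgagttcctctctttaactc

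The Zfp967 promoter matched that of Zfp968 at 100% of 224 aligned positions, with the start sites shifted against each other. The Zfp970 promoter also matched Zfp968 at 100%, over 219 positions. Zfp972 was the more distant copy, with 38 substitutions and 80.3% identity to Zfp968 over 203 positions. The chromosome 4 promoters come from Zfp600 at chr4:146156577-146156826, plus strand, Rex2 at chr4:147021600-147021849, plus strand and Zfp980 at chr4:145670447-145670696, plus strand.
Zfp600: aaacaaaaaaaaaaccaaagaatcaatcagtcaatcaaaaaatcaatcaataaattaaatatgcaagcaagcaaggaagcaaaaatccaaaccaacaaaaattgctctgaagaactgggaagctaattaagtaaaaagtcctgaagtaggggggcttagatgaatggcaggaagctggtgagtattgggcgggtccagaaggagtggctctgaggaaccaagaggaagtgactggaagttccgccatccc
Rex2: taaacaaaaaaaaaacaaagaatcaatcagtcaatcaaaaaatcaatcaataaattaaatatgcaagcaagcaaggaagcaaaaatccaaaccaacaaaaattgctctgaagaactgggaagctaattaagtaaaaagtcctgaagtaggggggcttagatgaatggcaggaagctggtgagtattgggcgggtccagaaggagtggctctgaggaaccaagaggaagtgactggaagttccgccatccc
Zfp980: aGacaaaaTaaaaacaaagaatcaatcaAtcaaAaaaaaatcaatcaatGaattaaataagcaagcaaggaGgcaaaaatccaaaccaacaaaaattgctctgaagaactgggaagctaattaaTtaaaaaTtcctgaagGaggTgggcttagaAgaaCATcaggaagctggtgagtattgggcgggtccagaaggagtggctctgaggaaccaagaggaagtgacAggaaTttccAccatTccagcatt

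Rex2 differed from Zfp600 by no substitution and 1 gap base, which left 99.6% identity over 250 positions. Zfp980 differed by 18 substitutions and 6 gap bases (90.4%). Across the genes with a zinc-finger name on chromosome 2, all 36 pairs of the 9 promoters could be aligned over at least 100 positions. Their identities were 78.9 to 100%, with a median of 97.5%. On chromosome 4, 46 of 78 pairs of the 13 promoters present could be aligned so, with 57.4 to 99.6% and a median of 87.3%. An exact run of 75 bases was shared with the promoter of another gene by 8 of 9 named zinc-finger genes on chromosome 2. On chromosome 4 it was shared by 5 of 13. Besides the 250 bases, this search took in a short part after each gene's start, and it left out partners close by on the same chromosome. Over all 25748 autosomal genes of the table, 1288 shared such a run. The letters CCAAT, searched on both strands, were present in the 250 bases before the start of all 9 genes on chromosome 2 and of 11 of 13 on chromosome 4. Over all 31396 autosomal promoters the share was 33.7%, and near-identical copies are not independent. CpG pairs were few, with a median of 3 per promoter on chromosome 2 and 2 on chromosome 4, against 6 over all autosomal promoters.

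Peaks were spread unevenly over both windows, and the cell types differed in where their peaks lay. In mESC the reproducible peaks stood at 8.0 per Mb on chromosome 2 and 14.3 per Mb on chromosome 4, against 11.4 per Mb over the autosomes. Wild-type NPC had 4.86 and 10.3 per Mb, below their autosomal 16.4, and deltaFT NPC had 6.86 and 8.33 per Mb, below 14.9. The 4 TXY lists had 20 to 23.7 peaks per Mb on chromosome 2 and 66.0 to 79.0 on chromosome 4, against 51.4 to 58.0 over the autosomes. The chromosome 2 window was thus sparser than the autosomes in every list, and the chromosome 4 window was denser in the stem-cell lists alone.

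**Figure D1:**
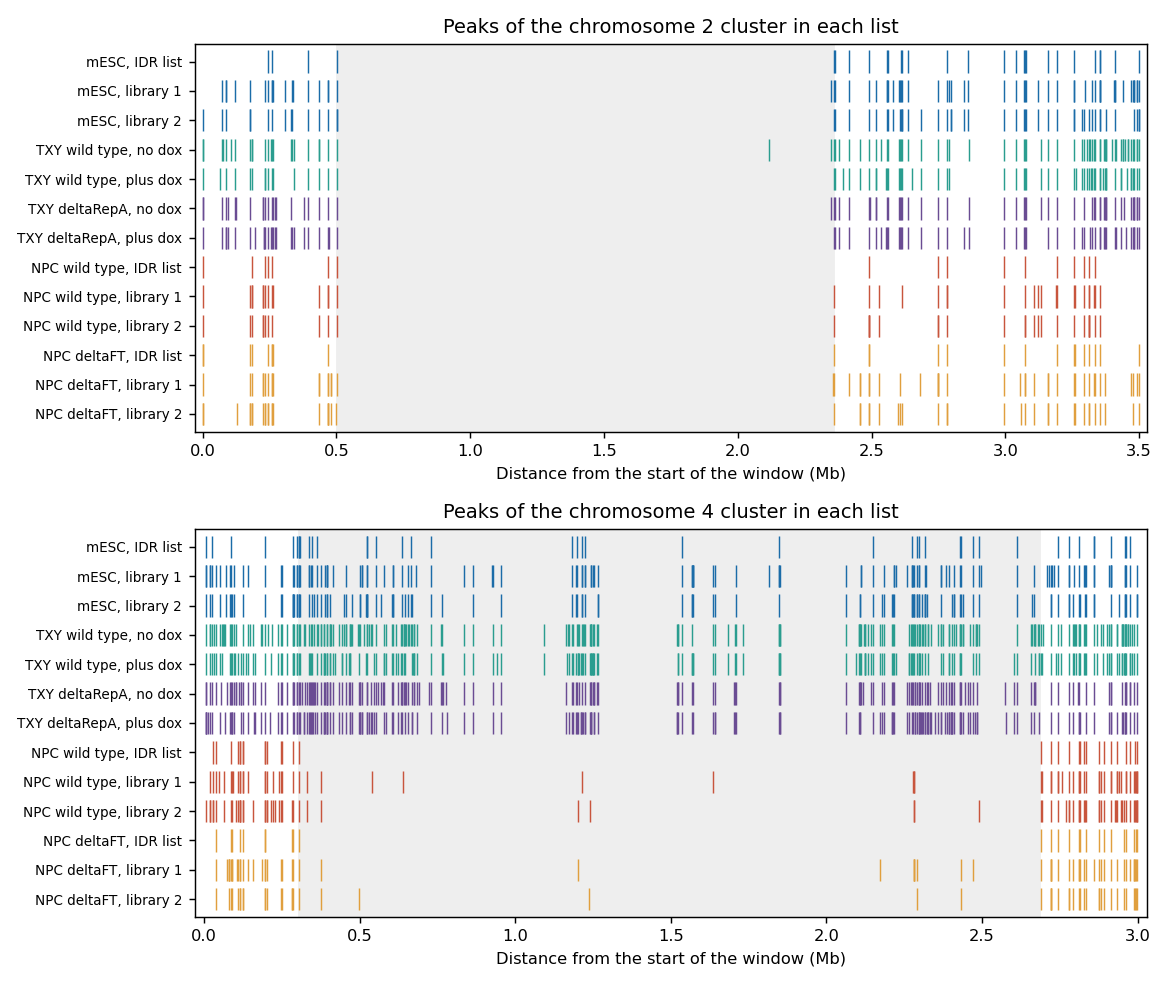
Position of every peak in the chromosome 2 window (top) and the chromosome 4 window (bottom), in Mb from the window's start, with 1 row per deposited list and 1 tick per peak. Grey marks the stretch of 1.86 Mb on chromosome 2 with at most 2 peaks in any list, and the stretch of 2.38 Mb on chromosome 4 in which stem-cell lists hold many peaks and progenitor lists hold few.

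The chromosome 4 cluster held a long stretch with few progenitor peaks and many stem-cell peaks. Between chr4:144804790 and chr4:147187355, a length of 2.38 Mb, neither NPC line had a reproducible peak. mESC had 27 there, or 11.3 per Mb, close to their autosomal 11.4. The mESC libraries had 88 and 85 peaks, or 36.9 and 35.7 per Mb, above their autosomal 29.4 and 26.5. The wild-type NPC libraries had 9 and 7, or 3.78 and 2.94 per Mb where their autosomes had 33.2 and 39.0. The deltaFT libraries had 9 and 5, or 3.78 and 2.10 per Mb, where their autosomes had 34.5 and 29.0. Male stem cells had 139 to 162 peaks in the stretch per list, which is 58.3 to 68.0 per Mb and a little above their autosomal 51.4 to 58.0. Among 39673 runs between neighbouring wild-type NPC peaks on the autosomes, this was the second by number of mESC peaks, after a run on chromosome 12 with 31. The X chromosome was not searched. Among 36015 such runs of deltaFT NPC it was the first, and the next held 18. The stretch was chosen after the peaks were seen, so these ranks describe it. Of its 27 mESC peaks, 25 were in no wild-type NPC list, where all autosomal mESC peaks gave 41.1%. In no deltaFT list were 25, where 59.9% of autosomal mESC peaks were in such a list. In no list of either NPC line were 23, against 10166 of 27538 autosomal ones. These counts follow in part from picking a stretch without NPC peaks. In all 4 TXY lists were 24, near the autosomal 89.9%.

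Both ends of the chromosome 4 window were open in progenitors. Below the stretch, over 0.305 Mb, there were 7 reproducible peaks in mESC, 15 in wild-type NPC and 10 in deltaFT NPC. Above it, over 0.313 Mb, there were 9, 16 and 15. In wild-type NPC these ends stood at 49.2 and 51.2 peaks per Mb, against 16.4 over the autosomes. For deltaFT NPC it was 32.8 and 48.0, against 14.9, and for mESC 23.0 and 28.8, against 11.4. That all reproducible progenitor peaks of the window lay at its ends follows from how the stretch was chosen. Whether these ends hold zinc-finger genes or flanking genes was not tested.

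**Figure D2:**
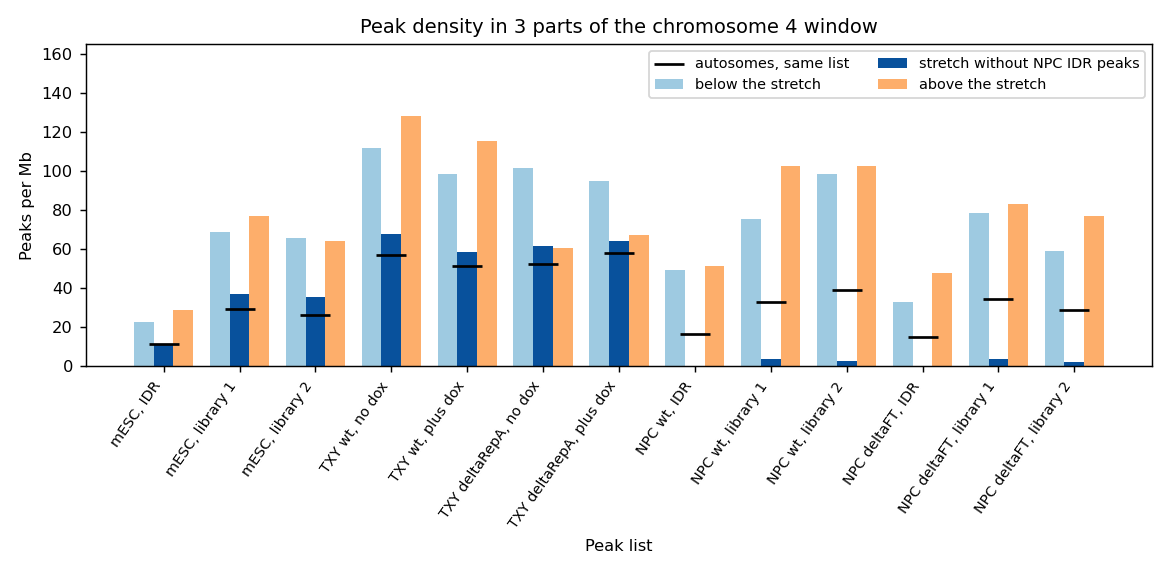
Peaks per Mb in 3 parts of the chromosome 4 window for each of the 13 lists, as bars, with the autosomal density of the same list as a black dash. The stretch reaches 58.3 to 68.0 peaks per Mb in the TXY lists and at most 3.78 in the NPC lists, while both ends lie above the autosomal density in every list.

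At the upper end the deltaRepA lists held fewer peaks than the wild-type TXY lists in both dox states. Wild-type TXY had 40 peaks there without dox and 36 with dox, and deltaRepA had 19 and 21. As shares of each list's autosomal peaks these are 29.1 per 100000 (exact 95% interval 20.8 to 39.6) and 29.0 (20.3 to 40.2) for wild type. For deltaRepA they are 15.0 (9.04 to 23.5) and 15.0 (9.28 to 22.9). Of the 40 wild-type peaks without dox, 16 (40.0%, 24.9 to 56.7%) were found in the deltaRepA list, against 60.4% over the autosomes. Of the 19 deltaRepA peaks, 16 (84.2%, 60.4 to 96.6%) were found in wild type, against 66.2% over the autosomes. The lower end and the stretch showed no such split: wild type had 34 and 30 peaks below the stretch and 162 and 139 in it, and deltaRepA had 31 and 29 below and 147 and 153 in it. The upper end was singled out after its counts were seen, the intervals cover counting error only and overlap between genotypes, and each genotype was 1 line.

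On chromosome 2 the middle of the window held almost no peak in any list. Over 1.86 Mb, from chr2:175001767 to chr2:176858396, no IDR list had a peak and the library and TXY lists had 0 to 2 each. Whether reads can be placed there on mm9 was not tested. The segment above it, up to the last mESC peak at chr2:177999391, held 24 mESC peaks or 21.0 per Mb, against 11.4 over the autosomes. Its bounds were set by mESC peaks. The TXY lists had 41.2 to 49.1 peaks per Mb there, each below its own autosomal density of 51.4 to 58.0. Wild-type NPC had 10 reproducible peaks in that segment and deltaFT NPC 14. These are 8.76 and 12.3 per Mb, below their autosomal densities.

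The deepest peaks of the chromosome 2 cluster flanked the empty middle. The peak at chr2:176858397-176859222 had 1743 reads in mESC, rank 52 of 27538 autosomal mESC peaks, with −log10 p of 75 and 58.1 in the 2 libraries. It overlapped no peak of either NPC line. Close above it, at chr2:176859880-176859981, deltaFT NPC had a shallow reproducible peak of 30 reads. Both wild-type NPC libraries had a peak overlapping that one, with −log10 p of 10.4 and 5.44. In TXY the −log10 p of the mESC peak was 107 and 73.8 in wild type without and with dox, and 68.3 and 65.9 in deltaRepA. The peak on the other side, chr2:175000931-175001766, had 1627 reads (rank 62) in mESC and was also called in wild-type NPC, where it had 156 reads. In deltaFT NPC it was in 1 library only, with −log10 p of 4.84. It was the highest peak of the window in every TXY list, with −log10 p of 116 and 78.1 in wild type and 81.7 and 78.8 in deltaRepA. These are the authors' MACS2 values and were compared only within a list.

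Other deep mESC peaks of chromosome 2 differed in whether progenitors had them. The peak at chr2:177114280-177114982 had 904 reads in mESC and was called in 1 library of each NPC line, with −log10 p of 9.91 and 6.03. The peaks at chr2:177570567-177571236 (735 reads), chr2:174893130-174893751 (543 reads) and chr2:177057021-177057423 (386 reads) were in no NPC list of either line and in all 4 TXY lists. The remaining 2 of the 8 deepest were called in every NPC list. They were chr2:177493605-177494306, with 351 reads in mESC, 216 in wild-type NPC and 184 in deltaFT NPC, and chr2:177282549-177282983, with 303, 479 and 196.

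On chromosome 4 the 3 deepest mESC peaks all lay in the stretch without reproducible NPC peaks. The first, chr4:146034367-146035348, had 1860 reads, rank 42 among autosomal mESC peaks, and −log10 p of 51.8 and 53.7. In TXY its −log10 p was 50.0 and 40.6 in wild type without and with dox, and 59.9 and 58.0 in deltaRepA. The second, chr4:146649154-146649990, had 1201 reads (rank 143) and was among the 3 highest peaks of the window in every TXY list. The third, chr4:145053455-145054276, had 960 reads (rank 303). None overlapped a peak of any NPC list, and each was in all 4 TXY lists.

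The next 5 on chromosome 4 were shallower. Those at chr4:147112754-147113353 (503 reads), chr4:146775892-146776598 (484 reads) and chr4:145230281-145231143 (391 reads) were in no NPC list. The peak at chr4:146791294-146791859 had 440 reads and was called weakly in both deltaFT libraries, with −log10 p of 5.09 and 4.41. The peak at chr4:147412615-147413317 lies in the upper end, outside the stretch. It had 464 reads in mESC, 886 in wild-type NPC and 1006 in deltaFT NPC, so it was read in all 3 female lines.

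**Figure D3:**
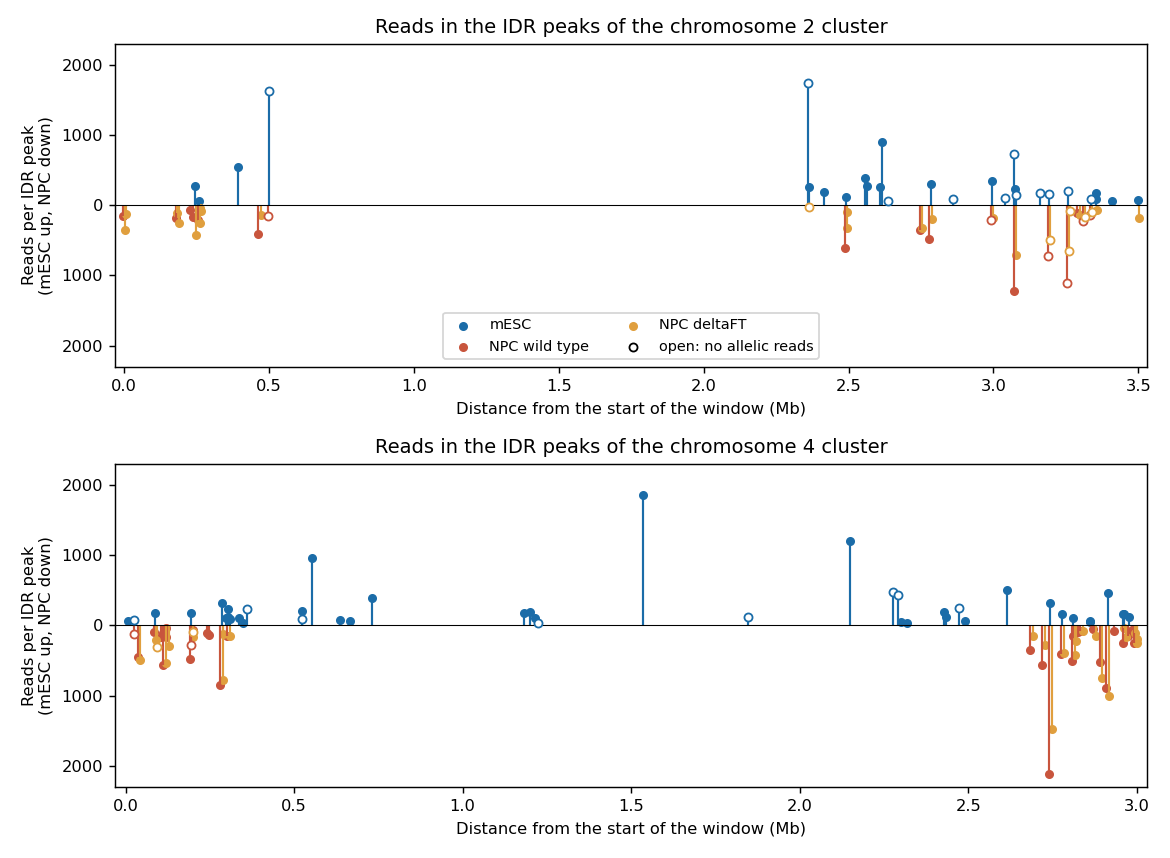
Reads in each reproducible peak against distance from the window's start in Mb, with mESC above the line and both NPC lines below it, not scaled for depth. Open circles are peaks without a single read given to an allele; the stretch of chromosome 4 carries the mESC peaks of 1860, 1201 and 960 reads and nothing below the line.

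Progenitors also had deep peaks in the windows, some of them shared with stem cells. Those on chromosome 4 lay outside the stretch because of how it was chosen. The deepest, chr4:147242350-147243214 in the upper end, was read 2113 times for wild-type NPC (rank 104 of 39692 autosomal peaks) and 1478 times for deltaFT NPC (rank 290 of 36036), against 324 times for mESC. The lower end held a peak at chr4:144783862-144785104 with 855 reads in wild-type NPC, 771 in deltaFT NPC and 318 in mESC. Both peaks were in all 4 TXY lists. The peak at chr4:144614714-144615606 had 560 and 532 reads in the NPC lines and was in no mESC or TXY list. In deltaFT NPC the fourth by reads was chr4:147392517-147393363, with 752 reads, which had 516 in wild-type NPC and was likewise in no stem-cell list.

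On chromosome 2 the deep NPC peaks were also stem-cell peaks. The peak at chr2:177574728-177575461 had 1221 reads in wild-type NPC, 703 in deltaFT NPC and 227 in mESC. That at chr2:177757608-177758897 had 1114, 659 and 205, and that at chr2:177691610-177692170 had 721, 501 and 159. The peak at chr2:176990852-176991523 had 610, 329 and 116. In deltaFT NPC the fourth was chr2:174742775-174743510, with 425 reads against 173 in wild-type NPC and 273 in mESC. Of the wild-type NPC peaks, 15 of 17 on chromosome 2 and 18 of 31 on chromosome 4 were in an mESC list, against 47.5% of autosomal peaks. For deltaFT NPC it was 18 of 24 and 14 of 25, against 53.6%.

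Read depth in the clusters relative to the autosomes was set beside this. Per 1000000 reads in autosomal peaks, the chromosome 2 cluster held 1569 in mESC, 609 in wild-type NPC and 511 in deltaFT NPC. The chromosome 4 cluster held 1775, 955 and 812. Both NPC lines were thus lower than mESC in each cluster, which is in part what the windows were chosen for.

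The contrast used in choosing the windows was as follows. In no wild-type NPC list were 16 of 28 mESC peaks on chromosome 2 and 31 of 43 on chromosome 4, or 57.1% and 72.1%, where all autosomal mESC peaks gave 41.1%. Among mESC peaks of at least 300 reads it was 11 of 18 in the clusters and 14.2% of 5752 autosomal ones. Of at least 1000 reads it was 3 of 4 in the clusters, against 14 of 263 (5.32%) autosomal ones, so the clusters hold 3 of those 14. These read limits were set after the peaks were seen.

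The values in deltaFT NPC are a description too, since this line shares most of its peaks with wild-type NPC and the windows were chosen for stem-cell peaks that progenitors lack. Of the mESC peaks, 15 of 28 on chromosome 2 (53.6%) and 14 of 43 on chromosome 4 (32.6%) were in a deltaFT list, against 59.9% over the autosomes. The overlap of the progenitor lines was high: 89.4% of autosomal wild-type NPC peaks were in a deltaFT list, as were 17 of 17 and 30 of 31 of those in the clusters. Among mESC peaks in no wild-type NPC list, 13 of 16 on chromosome 2 and 27 of 31 on chromosome 4 were in no deltaFT list either. These are 81.3% and 87.1%, near the autosomal 89.8%, so the deltaFT line repeated the wild-type pattern at the rate seen elsewhere.

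**Figure D4:**
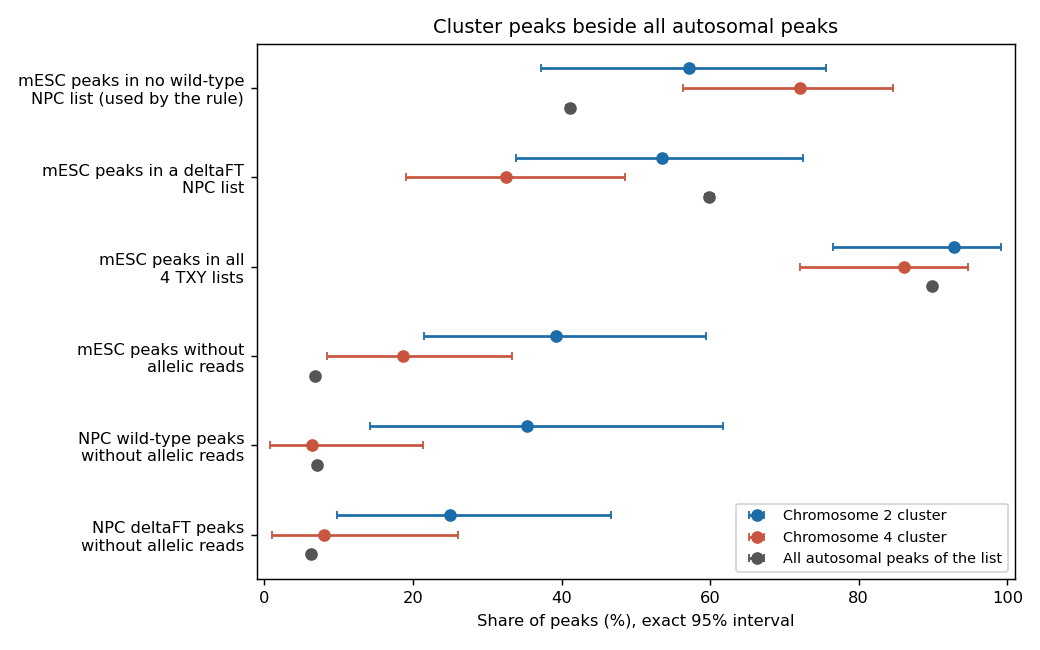
Shares of cluster peaks (blue and red) and of all autosomal peaks of the same list (grey), in percent with exact 95% intervals, for 6 properties. The first and second properties bear on how the windows were chosen and are a description. The shares in all 4 TXY lists lie near the autosomal 89.9%, and the chromosome 2 shares without allelic reads lie above the autosomal ones in all 3 lines.

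Male stem cells had nearly all of these sites, as they had of autosomal mESC sites in general. In all 4 TXY lists were 26 of 28 mESC peaks on chromosome 2 and 37 of 43 on chromosome 4, near the autosomal 89.9%. The highest TXY peaks of each window were mostly the deepest mESC peaks. On chromosome 2 the peaks described beside the empty middle were among the 3 highest in each list, together with the site at chr2:174893130 in 3 lists and that at chr2:177114280 in wild type with dox. On chromosome 4, besides chr4:146649154, the top 3 held chr4:146034367 in both deltaRepA lists and chr4:145053455 in untreated wild type. They also held a site at chr4:144694604 in 3 lists (−log10 p 47.8 to 73.4), which had 182 reads in mESC and 483 in wild-type NPC. With dox in wild type they held chr4:146791266 and chr4:147242402.

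The share of TXY peaks found again after Xist induction was above the autosomal share in both clusters and genotypes. Under a stricter limit it was not so on chromosome 4, and on chromosome 2 it lay near the autosomal share. In wild-type TXY, 59 of 83 peaks on chromosome 2 (71.1%) and 168 of 237 on chromosome 4 (70.9%) were found again with dox, against 62.1% over the autosomes. In deltaRepA it was 60 of 71 (84.5%) and 148 of 198 (74.7%), against 68.7%. The exact intervals for chromosome 2 in wild type (60.1 to 80.5%) and chromosome 4 in deltaRepA (68.1 to 80.6%) contained the autosomal shares. Those for chromosome 4 in wild type (64.7 to 76.6%) and chromosome 2 in deltaRepA (74.0 to 92.0%) did not. At −log10 q of at least 5 the wild-type share on chromosome 4 was 60.3%, below the autosomal 65.5%. In deltaRepA it was 61 of 77 (79.2%), near the autosomal 79.7%. On chromosome 2 the shares at this limit were 66.7% in wild type and 82.5% in deltaRepA, against the same autosomal 65.5% and 79.7%. The number of peaks fell by 15.7% on chromosome 2 and 13.1% on chromosome 4 in wild type, while the autosomal number fell by 9.76%. In deltaRepA it was higher with dox by 4.23% and 3.03%, with autosomes higher by 10.7%. With 1 merged list per condition these differences carry no replicate check.

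Reads that could be given to an allele were few in the clusters. In mESC, 12.8% of the reads in chromosome 2 peaks and 28.4% in chromosome 4 peaks had an allele, against 40.1% over the autosomes. In wild-type NPC it was 18.8% and 31.9%, against 38.8%, and in deltaFT NPC 24.9% and 34.1%, against 40.7%. Many peaks had no such read at all. On chromosome 2 these were 11 of 28 mESC peaks (39.3%, exact interval 21.5 to 59.4%), against 6.84% over the autosomes. There were 6 of 17 in wild-type NPC (background 7.08%) and 6 of 24 in deltaFT NPC (background 6.29%). On chromosome 4 they were 8 of 43 in mESC, and 2 of 31 and 2 of 25 in the NPC lines. In mESC, 7 of those 8 lay in the stretch.

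The peaks without allelic reads included deep ones. The mESC peaks of 1743, 1627 and 735 reads on chromosome 2 and of 484 and 440 reads on chromosome 4 had no allelic read. The NPC peaks at chr2:177757608 and chr2:177691610 had none in either NPC line, at depths of 1114 and 721 reads for wild type, and of 659 and 501 for deltaFT. By contrast the mESC peak at chr4:146034367 had 459 allelic reads among its 1860. The rule by which reads were given to alleles is not stated in the sources used here, and the part of sequence similarity between copies in these counts was not tested.

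Where alleles could be read, the pooled balance was near even in mESC. The first-listed allele held 46.0% of allelic reads on chromosome 2 (exact interval 43.2 to 48.9%, 1240 reads in 16 peaks) and 50.7% on chromosome 4 (48.9 to 52.5%, 3088 reads in 26 peaks). The autosomal share was 47.9%. In wild-type NPC it was lower, at 32.9% (30.3 to 35.6%) and 43.1% (41.4 to 44.9%), against an autosomal 50.4%. In deltaFT NPC it was 51.2% (48.6 to 53.9%) and 47.9% (46.1 to 49.7%), against 48.9%. The wild-type NPC shares rest on few peaks: the medians over peaks were 40.5% for 11 peaks on chromosome 2 and 48.5% for 24 on chromosome 4. The columns name no strain, so which allele is meant is not known.

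Single peaks departed far from these averages. The deepest chromosome 4 peaks favoured the first allele in mESC, with 301 and 158 reads at chr4:146034367 (65.6%, 61.0 to 69.9%), 369 and 210 at chr4:146649154 (63.7%) and 108 and 65 at chr4:145053455 (62.4%). The peak at chr4:145714129 went the other way, with 4 reads from the first allele and 65 from the second (5.80%), and chr4:146817867 had 10 and 1 (90.9%). At chr4:147242483, mESC had 23 and 140 reads (14.1%), while the overlapping NPC peaks had 410 and 594 (wild type, 40.8%) and 331 and 405 (deltaFT, 45.0%).

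The low first-allele share of wild-type NPC on chromosome 2 came from a few sites. The peak at chr2:177249322 held 0 reads of the first allele and 155 of the second in wild-type NPC, whereas deltaFT NPC had 55 and 46 at that site. At chr2:177282503 the reads were 4 and 92 for wild-type NPC, 0 and 21 for deltaFT NPC and 20 and 61 in mESC, so all 3 lines leaned to the second allele. At chr2:176990852 the second allele also led in all 3 lines. The reads were 42 and 154 for wild-type NPC, 26 and 75 for deltaFT NPC and 5 and 26 in mESC. Counted as read almost wholly from 1 allele (under 20% or over 80%) were 1 of 16 mESC peaks on chromosome 2 and 3 of 26 on chromosome 4, against 4.65%. In wild-type NPC they were 3 of 11 and 2 of 24, against 5.44%, and in deltaFT NPC 1 of 17 and 2 of 22, against 4.35%. The 3 wild-type NPC peaks on chromosome 2 were chr2:177249322, chr2:177282503 and chr2:174758243. The last leaned to the first allele, with 25 and 4 reads (86.2%), and chr2:176990852 (21.4%) did not pass the limit. These counts are small, and none was set apart from the background under every limit used. The exact interval for 3 of 11 (6.02 to 61.0%) begins just above it, but that for 2 of 8 peaks with at least 30 allelic reads (3.19 to 65.1%) contains its background of 4.78%, and that for 2 of 11 under a limit of 10% (2.28 to 51.8%) its 2.30%.

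**Figure D5:**
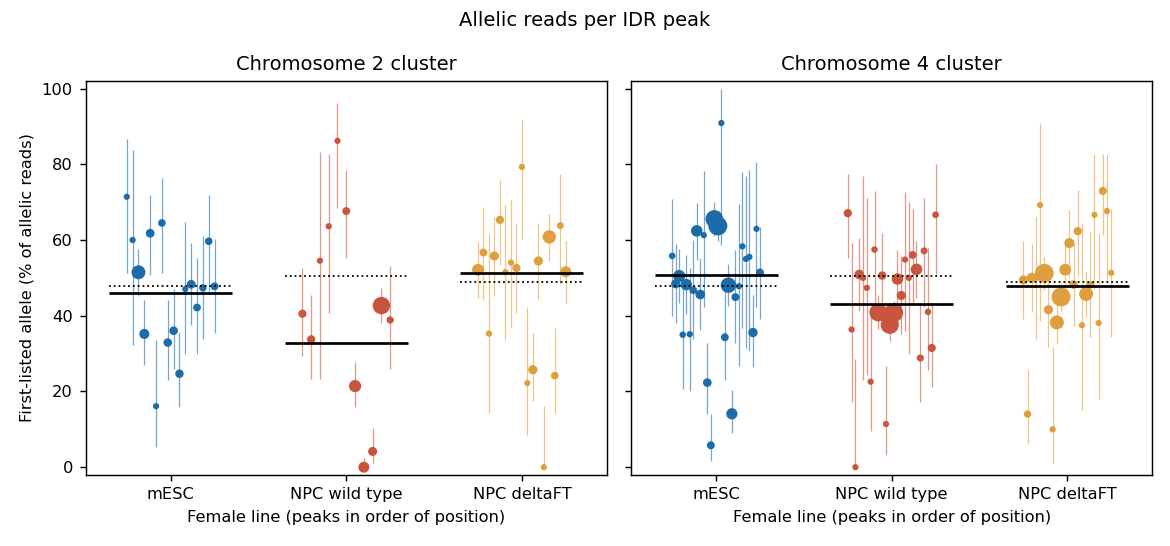
First-listed allele as a percent of allelic reads for each reproducible peak with at least 10 allelic reads, in order of position within each female line, with exact 95% intervals as thin lines and point area growing with allelic reads. Black lines are the pooled cluster share and dotted lines the autosomal share; wild-type NPC on chromosome 2 pools to 32.9%, below its autosomal 50.4%.

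The peaks nearest the window edges were as follows. On chromosome 2 the first mESC peak inside was chr2:174742894-174743328 (273 reads) and the nearest outside chr2:174390311-174390719 (118 reads). At the upper edge they were chr2:177999215-177999391 (72 reads) and chr2:178062101-178062461 (135 reads). On chromosome 4 they were chr4:144507118-144507325 (61 reads) and chr4:144488255-144488501 (103 reads) at the lower edge, and chr4:147476201-147476563 (125 reads) and chr4:147504713-147505065 (127 reads) at the upper. The nearest NPC peaks outside had 67 to 959 reads and those inside 115 to 497.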

How the data were processed

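ATAC-seq peak lists of 7 samples were used. Per the submitters' processing notes, reads were handled with cutadapt, Bowtie2 and MACS2 on mm9. Versions, duplicate handling and any shift of reads to the Tn5 site are not stated in the sources used here. The authors deposited, per female line, 1 list of peaks found reproducibly in 2 libraries (IDR, irreproducible discovery rate under 0.05) with a raw read count per peak and a count for each of 2 alleles without strain names. It is not stated in the sources used here if these counts sum both libraries. The deposited library and TXY lists hold a fold enrichment over local background (a ratio), −log10 p and q values and an integer score from MACS2. TXY libraries were merged by the authors. Reads in IDR peaks numbered 6490181 in mESC, 11014387 in wild-type NPC and 11085592 in deltaFT NPC.

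Members and lists were chosen with earlier results of these data known. Peaks of 2 lists were matched when they shared at least 1 bp, using python 3.11.15, numpy 2.4.6 and pandas 2.3.3, with matplotlib 3.10.9 for the figures. Intervals of shares are exact Clopper-Pearson 95% intervals (scipy 1.17.1), and many shares are printed without theirs. The intervals cover counting error only, as PCR copies of a molecule cannot be told from separate molecules here. No test between groups was made with 1 sample per group; all peaks of the 19 autosomes in the same list serve as background. Allelic shares used at least 10 allelic reads. Promoters were aligned globally with free ends in biopython 1.88. The overlap and interval steps were tested on simulated data.

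Named peaks are, per cluster, the 8 mESC peaks and the 4 peaks of each NPC list with most reads, the 3 highest −log10 p in each TXY list, mESC peaks with at least 10 allelic reads and a first-allele share under 10% or over 90%, and those nearest the window edges. Both stretches, the ends of the chromosome 4 window, NPC peaks named for their alleles, the peak spacing and the promoters shown were chosen after values were seen. Alternatives were coverage of 50% of the peak, −log10 q of at least 5, at least 100 reads, 1 library left out and other allele limits, with at least 300 or 1000 reads and peaks without allelic reads at 100 reads added after seeing the data. Sequences come from RefSeq tables of GRCm38.p6 for 9 of 9 and 13 of 17 named zinc-finger genes.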

Additional observations from a re-analysis of the deposited data

How the results depend on the processing

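Over 78 results, 103 alternative values stayed within the counting interval of the reported one and 39 moved. Of 110 alternative shares, 19 lay on the other side of the autosomal share than the reported one. On chromosome 4 at −log10 q of at least 5, the distance from the autosomes went from 8.81 to -5.14 percentage points for wild-type peaks found with dox, from 10.7 to -0.66 for the reverse, and from 6.10 to -0.44 for deltaRepA peaks found with dox. None of the 19 concerned mESC peaks found in NPC lists or peaks without allelic reads on chromosome 2. With at least 50% of the peak covered, the share kept with dox on chromosome 4 was 62.4% in wild type and 66.2% in deltaRepA, the share of wild-type peaks found in deltaRepA there 51.5% without and 56.8% with dox, and the share of mESC library 2 peaks found in library 1 there 58.4%. At −log10 q of at least 5, wild-type peaks found with dox on chromosome 4 came to 60.3%, and dox peaks found without dox to 97.4% on chromosome 2 and 89.7% on chromosome 4. At that limit deltaRepA peaks found in wild type came to 97.5% and 87.0% without dox and 80.5% and 77.2% with dox, and wild-type dox peaks found in deltaRepA to 86.8% and 76.9%. The chromosome 4 mESC peaks found in TXY lists of that limit were 74.4% and 83.7% for deltaRepA without and with dox and 76.7% for wild type with dox. Restricted to at least 100 reads, mESC peaks found in TXY lists came to 100% in all 4 lists on chromosome 2 and in 3 on chromosome 4; restricted to at least 1000 reads, both chromosome 4 peaks (100%) were in no wild-type NPC list. At the stricter limit, shares of autosomal peaks on chromosome 2 were 0.0890% in each deltaRepA list, 0.0978% and 0.0898% in wild type and 0.127% in mESC library 2, and on chromosome 4 0.172% in deltaRepA with dox and 0.199% in untreated wild type. No peak (0%) was read almost wholly from 1 allele in deltaFT NPC on chromosome 2 at 30 allelic reads, nor with a limit of 10% on chromosome 4 in deltaFT NPC or on chromosome 2 in mESC. As medians over peaks, first-allele shares were 48.3% (mESC, chromosome 4), 40.5% and 48.5% (wild-type NPC, chromosomes 2 and 4) and 49.7% (deltaFT NPC, chromosome 4). The cause of these moves was not tested. Without library 1 or 2 of deltaFT NPC, mESC peaks found in that line ranged from 46.4 to 50.0% on chromosome 2 and from 23.3 to 32.6% on chromosome 4.

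No paired analysis was possible because each group is 1 sample and no result comes from a test. The limits are 1 line per group, merged TXY libraries without a replicate check, counts of 17 to 43 peaks per cluster in the IDR lists, and few allelic reads. Shares of TXY lists that share a sample are not independent.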

Other observations

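Some neighbouring mESC peaks of the chromosome 2 cluster had a like spacing. Of 27 neighbouring pairs, 4 (14.8%) had starts 4.44 to 6.11 kb apart, namely those beginning at chr2:176858397, chr2:177057021, chr2:177109096 and chr2:177570567. On chromosome 4, 3 of 42 pairs (7.14%) were between 4000 and 6500 bp apart, and over the autosomes 1319 of 27519 (4.79%). The range was set after these pairs were seen. In 3 of the 4 chromosome 2 pairs, 1 partner is the peak of 1743, 904 or 735 reads described in the results.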
